A study of Mus musculus with 18 samples.

Results

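Retained-intron transcripts are RNAs that an annotation assigns to a gene but that carry intron sequence which the gene's coding transcripts remove. The transcripts described here are those of type retained_intron in GENCODE M21, the mm10 mouse annotation, with at least 10 estimated reads (the deposited count per transcript) in all 9 libraries of a stage. The deposited tables list 16830 retained-intron transcripts in 7279 genes, and 7557 of them in 4034 genes met the rule in at least 1 stage. In myoblasts 6745 met it and in myotubes 6345; 5533 met it in both stages, 1212 only in myoblasts and 812 only in myotubes. The members were thus chosen by their deposited read counts, and their presence is a description and no finding. Each is read below as its share, the TPM of the transcript (its length-corrected level in parts of a library) as a percentage of the summed TPM of its gene. At the edge of the rule, Nbeal1-206 was just inside in myoblasts, with 10 reads in its lowest library, and Ppp1r16a-202 was just outside with 9.99.

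The RNA came from C2C12, a mouse line of muscle precursors that can be grown as single myoblasts or differentiated into multinucleated myotubes. At either stage the culture was treated with control siRNA or with 1 of a pair of siRNAs against Setd2, here siRNA 1 and siRNA 2. This makes 6 groups of 3 libraries labelled as biological replicates, 18 in all. Every group, controls included, was stretched before the RNA was taken, and the molecule is labelled as polyA RNA. C2C12 is 1 cell line, so the libraries are cultures of that line rather than animals, and p-values measure the spread between these cultures. The deposited columns name the third myoblast library of siRNA 2 with SETD3 where its label has SETD2, and the third myotube control with NT_2 where the other controls have NT_1. Both were kept as labelled, and the results without each are included in the ranges given for libraries left out. Library names also begin with C14 or D2 in myoblasts and C13 or D1 in myotubes; what the prefixes mark is not stated, and it cannot be told apart from stage.

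A spliceosome normally cuts an intron at its 5′ splice site, which nearly always begins with GT, and its 3′ splice site, which nearly always ends with AG. An intron that stays in a polyadenylated RNA commonly holds the RNA in the nucleus or brings in a stop codon that exposes it to nonsense-mediated decay, and many genes of splicing factors use such transcripts to limit their own protein. Setd2 encodes the methyltransferase that places trimethylation on lysine 36 of histone H3 along transcribed genes, a mark that has been linked to splicing through proteins that read it.

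Setd2 itself was lower in every depleted library than in every control of its stage. Its summed TPM was 33.7 ± 2.89 (SD, n = 3) in control myoblasts, 12.5 ± 2.42 with siRNA 1 and 14.9 ± 1.49 with siRNA 2. In myotubes it was 32.4 ± 1.04, 16.9 ± 4.39 and 11.99 ± 0.89. Libraries held 43.5 to 66.6 megareads of estimated counts, of which 1.90% to 2.39% were assigned to retained-intron transcripts. The summed TPM of 7 myotube markers, among them Myog and Ckm, was 36.4 to 147 in myoblast libraries and 11300 to 13300 in myotube libraries; adipocyte, endothelial and neural marker sums stayed under 1 TPM and the blood marker sum under 4. The fibroblast marker sum (Pdgfra, Dcn, Col1a1, Lum) was 23.1 to 70.7 TPM in myoblast libraries and 133 to 235 in myotube libraries. Between control means, Dcn went from 4.27 to 97.3 and Col1a1 from 19.8 to 75.9, while Pdgfra was at 2.52 and 3.03 and Lum at 0.034 and 0.18. The myoblast marker sum was 821 to 1200 TPM in myoblast libraries and 2590 to 2880 in myotube libraries. Of its genes, Des, Myod1 and Cdh15 were higher in control myotubes, and Myf5 and Pax7 lower. In bulk RNA, fewer cells of a kind and less RNA per cell cannot be told apart.

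The members differed in how much intron they carry. Of the 7557, 2879 (38.1%) contain at least 1 whole intron of a coding transcript of their gene, 2016 of them exactly 1 and 863 more than 1. The other 4678 contain no whole intron, and 4606 of those start or end inside one. A median of 40.5% of the bases of a member were its own, lying in no exon of another transcript type of the gene; 806 members had under 10% and 52 had none, so their reads rest almost wholly on bases shared with other transcripts. The own bases of 509 members (6.74%) overlap an exon of another gene, 340 of them on the other strand. The sources used here do not say whether the libraries keep strand, and reads of the overlapping genes cannot be told apart. Genes held 1 member in 2159 cases and more in 1875, with 10 for Qars, the glutaminyl-tRNA synthetase gene. Members of 1 gene share their source and are not independent of each other.

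The retained introns counted here were shorter than other introns of the same genes, partly through the way of counting. Only introns lying wholly inside 1 exon of a member were counted. Where such introns overlapped, the shortest was kept, and longer ones were mostly counted with the other introns. An entry in Srsf5-212 is only 21 bases long. The 3824 distinct retained introns of coding genes had a median length of 274 bases (quartiles 118 and 715), against 1295 bases (444 and 3207) for the 58735 other introns of the same genes. GC content had a median of 50.6% over the 3816 introns whose sequence was read, of which 3734 (97.8%) begin with GT and end with AG and 42 (1.1%) begin with GC and end with AG. The splice sites of members whose share moved between stages are shown next, because they are the junctions that a read of the retained form leaves uncut. Sequences come from the GENCODE transcripts, 5′ to 3′, with exon bases in capitals and intron bases in lower case: 3 exon and 6 intron bases at the 5′ site, 20 intron and 3 exon bases at the 3′ site.

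The intron in Sf3b1-203 (chr1:55014563-55016375, minus strand, 1813 bases) and the intron in Obsl1-203 (chr1:75496625-75497007, minus strand, 383 bases) have these sites.
Sf3b1-203 5′ site: ATGgtaatt
Sf3b1-203 3′ site: gttgctgttcttttctgcagGAG
Obsl1-203 5′ site: CAGgtgtgg
Obsl1-203 3′ site: gtgttttgtttggcctgcagAGT
Srsf2-203 keeps an intron of 686 bases (chr11:116850962-116851647) and one of 269 bases (chr11:116851752-116852020), both on the minus strand, listed in genome order.
Srsf2-203 longer intron 5′ site: CAGgtttgt
Srsf2-203 longer intron 3′ site: ctctttcttttcaaacctagATG
Srsf2-203 shorter intron 5′ site: ATGgtaatg
Srsf2-203 shorter intron 3′ site: tgcattttccccctttaaagCTG
Srsf6-204 keeps an intron of 672 bases (chr2:162932143-162932814) and one of 446 bases (chr2:162932980-162933425), both on the plus strand.
Srsf6-204 longer intron 5′ site: GCAgtgagt
Srsf6-204 longer intron 3′ site: ttgatgtttcaatttgaaagTGA
Srsf6-204 shorter intron 5′ site: ATGgtgagg
Srsf6-204 shorter intron 3′ site: actcccttcatgtgataaagGTG
Ptbp1-213 keeps 1 intron of 401 bases (chr10:79862048-79862448, plus strand).
Ptbp1-213 5′ site: TCGgtatgt
Ptbp1-213 3′ site: tcttaccctgggtttccaagGCG
All of these introns begin with GT and end with AG.

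Most members were a small part of their gene. In control myoblasts the median share was 3.81% (10th to 90th percentile 0.88% to 16.4%, n = 6745) and in control myotubes 4.12% (n = 6345). In control myoblasts 92 members made up more than 50% of their gene's TPM and in control myotubes 105. The libraries of a group differed little in the summed level. Over the 5533 members of both stages, their TPM summed to 10.03% ± 0.031 (SD, n = 3) of their genes' TPM in control myoblasts, 9.94% ± 0.180 with siRNA 1 and 9.94% ± 0.170 with siRNA 2. In myotubes the sums were 9.59% ± 0.121, 9.34% ± 0.215 and 9.30% ± 0.207. The 3 control myotube libraries lay below the 3 control myoblast libraries in this sum, while the depleted libraries overlapped the controls of their stage. Split by name prefix, each value rests on only 1 or 2 libraries. Myotube libraries beginning with C13 had 9.64% for controls (n = 2), 9.58% with siRNA 1 (n = 1) and 9.24% with siRNA 2 (n = 1). Those beginning with D1 had 9.49% (n = 1), 9.22% (n = 2) and 9.33% (n = 2). In myoblasts, C14 libraries had 10.05% (n = 1), 10.04% (n = 2) and 9.76% (n = 1), and D2 libraries 10.02% (n = 2), 9.75% (n = 1) and 10.03% (n = 2).

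**Figure D1:**
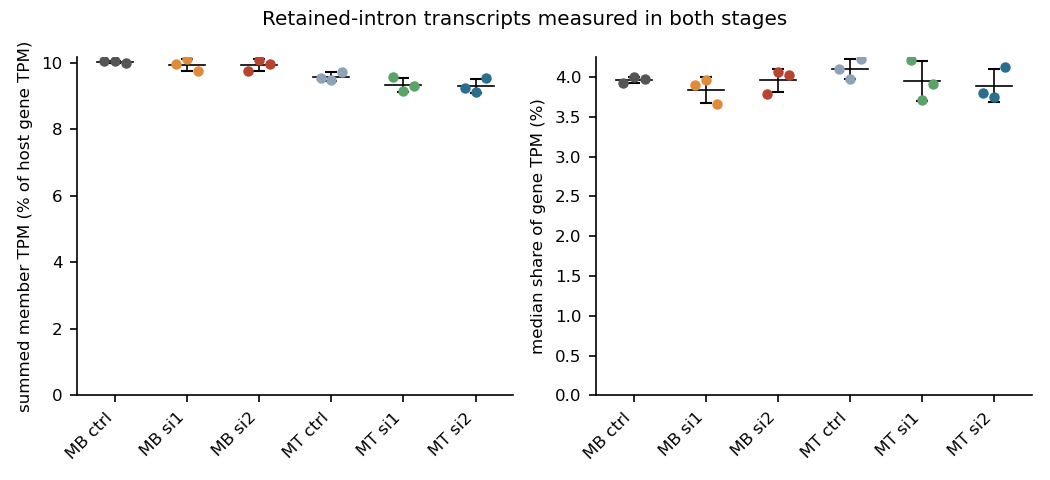
Retained-intron share of gene TPM by library, in percent, for the 6 groups of 3 libraries; points are libraries and bars are the group mean with its SD. The summed share over the 5533 members of both stages lay near 10.03% in control myoblasts and 9.59% in control myotubes.

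The members with the highest level came from genes of abundant proteins, and their shares were close to each other in the control stages. Ppia-203, of the prolyl isomerase cyclophilin A, had 1222 ± 164 TPM in control myoblasts and 790.6 ± 83.4 in control myotubes, with shares of 24.5% and 25.3%. Rps20-201, of a small ribosomal subunit protein, had 1122 ± 51.9 and 729.3 ± 28.0 TPM and made up 87.0% ± 0.65 and 87.2% ± 0.38 of its gene. Vim-203, of the intermediate filament vimentin, was at 1111 and then 443 TPM with shares of 16.8% and 18.8%. None of these 3, nor Rps16-203, Vim-204 and Cox6b1-202, was called for a stage difference in share (smallest adjusted p = 0.202, limma). Genes of this kind have processed copies elsewhere in the genome, so their values are uncertain.

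Differentiation was the comparison in which retained-intron shares moved. In control myotubes against control myoblasts, 879 of 5493 members tested (16%) passed an adjusted p of 0.05 in limma on the log2 ratio of member to rest of gene, 467 higher and 412 lower in myotubes. The background over all 22411 transcripts tested was 22.2% called, 11.2% higher and 11% lower. By annotated type, 25.4% of protein-coding, 19.4% of processed and 18.6% of nonsense-mediated decay transcripts were called. The median log2 difference was 0.02 over members and 0.00 over all transcripts tested. Members holding a whole intron were called in 16.1% of cases (210 higher, 156 lower of 2271) and the others in 15.9% (257 higher, 256 lower of 3222). The calls lay in 746 genes. In 109 genes at least 2 members were called, and in 20 of those genes members moved in opposite directions.

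A share is a ratio, and both of its terms differed between stages. Among the 467 members with a higher share in myotubes, the median log2 difference was 0.27 for the member's own TPM and -0.60 for the rest of the gene. In 196 of them the member was higher and the rest lower. In 101 of them the member stayed within 2-fold while the rest of the gene was at least 2-fold lower. The 412 members with a lower share had the opposite signs, with a median of -0.31 for the member and 0.59 for the rest of the gene. A shift of 5 percentage points or more was seen in 90 of the higher and 103 of the lower members, and of 10 points or more in 24 and 38.

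**Figure D2:**
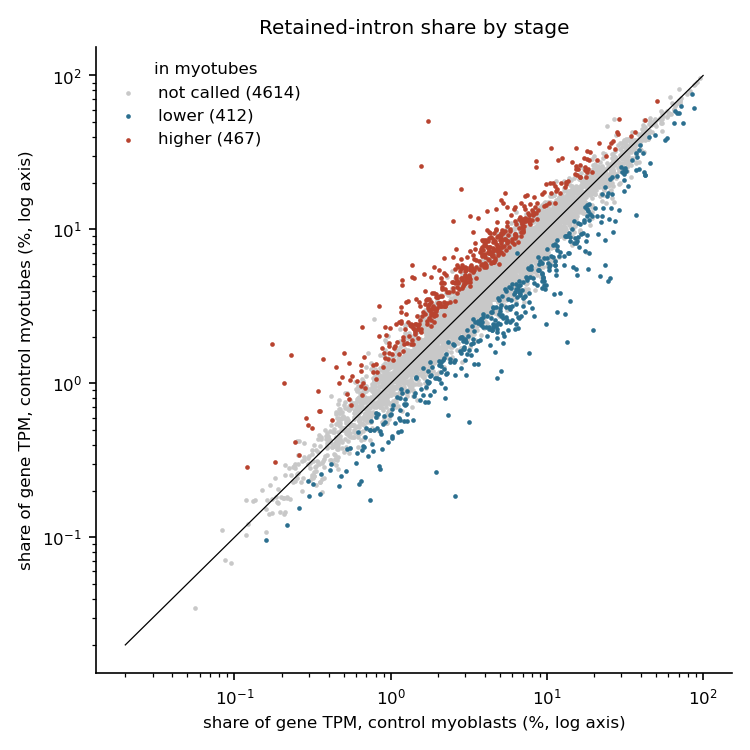
Mean share of gene TPM in control myoblasts (x axis) and control myotubes (y axis), both in percent on log axes, for the 5493 members tested; each point is a member and colour marks those called higher (467) or lower (412) in myotubes. The calls spread over the whole range of shares, and Rabep2-204 stands farthest from the diagonal.

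The same stage difference can be read in the depleted cultures. Their values do not enter the size of the control difference, but all 18 libraries share the estimate of spread behind its test. Of the 467 members with a higher share in control myotubes, 449 were also higher in siRNA 1 myotubes than in siRNA 1 myoblasts, 358 of them with no overlap between the 3 libraries of each stage. With siRNA 2 the counts were 445 and 328. Of the 412 lower members, 395 were lower with siRNA 1 (301 without overlap) and 400 with siRNA 2 (319 without overlap). Over all transcripts tested, 18.7% were higher and 18.4% lower without overlap with siRNA 1, and 17.9% and 18.9% with siRNA 2.

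Rabep2-204 had the largest shift in share. Rabep2 encodes an effector of Rab5 in endocytosis, and this member (chr7:126444800-126449245, plus strand) is 2338 bases long, 1616 of them its own. Its share was 2.03%, 1.45% and 1.73% in the 3 control myoblast libraries and 56.9%, 46.0% and 48.9% in the 3 control myotube libraries. Every myotube library thus lay far above every myoblast library, a difference of 5.49 ± 0.17 (SE) in the log2 ratio (adjusted p = 3.41e-12, limma). The member was at 0.33 and then 15.4 TPM and the gene at 18.9 and then 30.4 TPM. Its own bases overlap a gene on the other strand, and the strand of these reads cannot be told. In depleted myoblasts the share was 2.89% and 4.30%, and in depleted myotubes 59.8% and 68.1%, with siRNA 1 and siRNA 2, none of which was called against the control (adjusted p = 0.585, 0.11, 0.616 and 0.228, limma).

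Other leading rises lay in genes with various roles. Gins2-203, of a subunit of the GINS replication helicase complex, went from 1.56% ± 0.57 of its gene to 25.6% ± 5.26 (adjusted p = 2.96e-06, limma) with the gene at 50.95 and then 11.9 TPM; only 86 of its 3662 bases are its own. Wdr76-205, of a WD-repeat protein that binds chromatin, went from 10.7% ± 1.95 to 34.0% ± 2.66 (adjusted p = 2.1e-06) with its gene at 16.4 and then 7.89 TPM. Tenm3-205, of a teneurin adhesion protein, went from 29.1% ± 3.45 to 52.0% ± 3.71 (adjusted p = 8.18e-06), and 8.67% of its bases are its own.

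Among the leading falls, the whole gene was often higher in myotubes. Obsl1-203 (chr1:75496337-75503680, minus strand), of the cytoskeletal adaptor obscurin-like 1, had 25.8%, 25.2% and 23.0% of its gene in control myoblasts and 5.07%, 4.23% and 4.66% in control myotubes, with no overlap (log2 difference -2.75 ± 0.13, adjusted p = 4.03e-10, limma). Its own level was 5.28 and then 11.2 TPM, and that of its gene 21.4 and then 241 TPM. Eda2r-203, of a receptor for ectodysplasin, went from a share of 37.3% ± 2.24 to 12.3% ± 0.84 (adjusted p = 2.37e-09), with the member at 6.92 and then 13.7 TPM and the gene at 18.6 and then 111 TPM. Ppp1r12b-204, of a myosin phosphatase regulatory subunit, had 25.4% ± 2.67 and then 4.80% ± 1.36 (adjusted p = 1.93e-06).

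The remaining leaders lay in less abundant genes. Ccdc62-203 went from 87.0% ± 5.35 to 61.4% ± 4.93 (adjusted p = 0.0017) at about 2 TPM. Gm26788-202, of a long noncoding gene, went from 74.5% ± 2.05 to 49.2% ± 5.19 (adjusted p = 0.000375) and overlaps a gene on the other strand. 5430405H02Rik-204 went from 42.4% ± 5.73 to 22.5% ± 1.69 with an adjusted p of 0.0326 in limma, which was lost when any 1 of the 6 control libraries was left out.

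**Figure D3:**
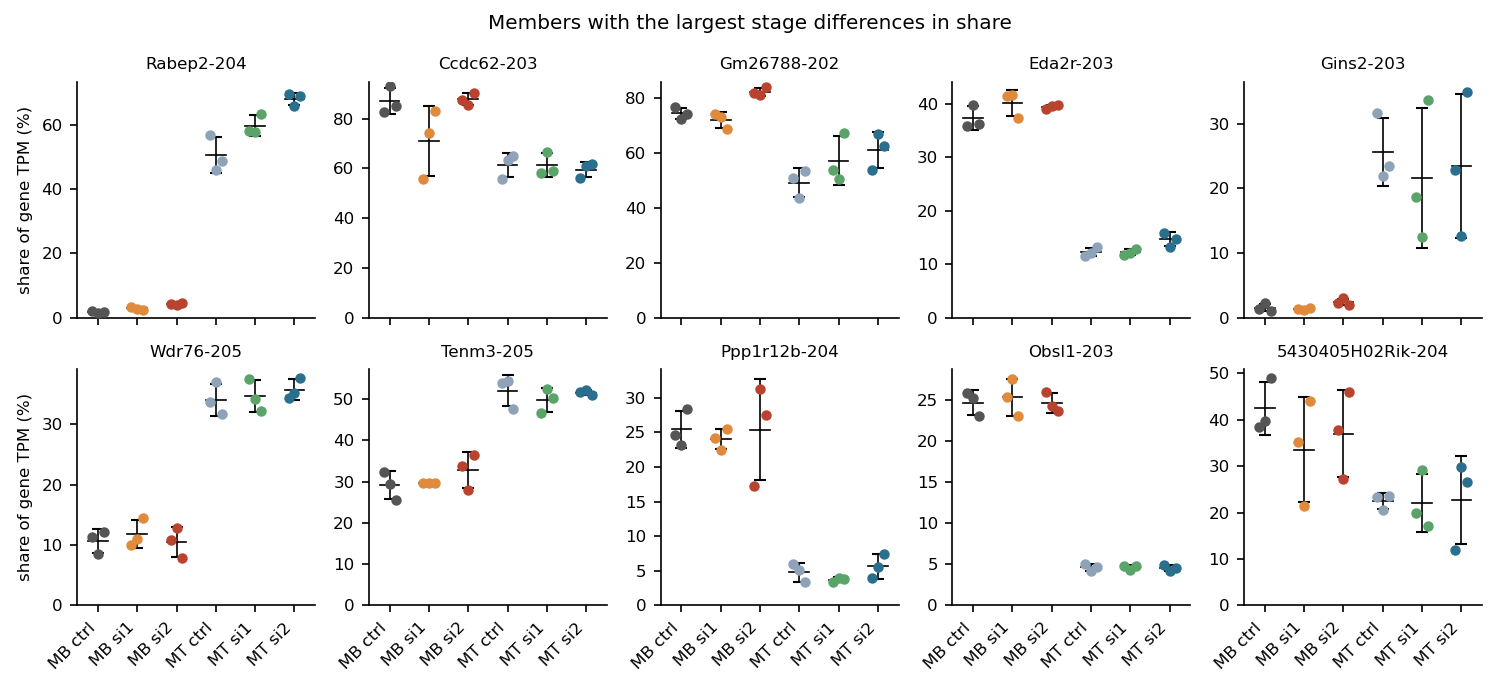
Share of gene TPM in percent for the 10 members called between control stages with the largest difference in percentage points, in all 6 groups; points are libraries, bars the group mean with its SD (n = 3). Rabep2-204 lay at 1.45% to 2.03% in control myoblasts and 46.0% to 56.9% in control myotubes.

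Members of RNA-processing genes that were called were nearly all higher in myotubes. Over the lists of SR proteins, spliceosome components, hnRNP and related RNA-binding proteins, 3′ end processing, splicing kinases and nonsense-mediated decay, 233 members in 97 genes were tested. Of these, 59 in 40 genes had a higher share in control myotubes and 2 a lower one, against 11.2% higher and 11% lower over all transcripts; the 59 are 25.3% of those tested. The difference was above 0 in 173 of the 233 (74.2%), against 52.4% of all 5493 members tested, and its median on the log2 scale was 0.28, against 0.02. These lists were chosen with results of these data known, so the count describes them and is no independent evidence of a direction.

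The SR and SR-related proteins, which bind exons and recruit the splicing machinery, had 24 of 56 members higher and 0 lower, in 16 genes, with a median of 0.42 and 45 of 56 above 0. Srsf3-204 (chr17:29032649-29042243, plus strand), which keeps 2 whole introns of this splicing factor gene, had 5.47%, 5.42% and 5.82% in control myoblasts and 14.8%, 13.5% and 13.7% in control myotubes. The groups did not overlap (1.46 ± 0.11, adjusted p = 1.2e-07, limma). The member was at 23.2 and then 31.5 TPM, and the rest of the gene at 394 and then 193. Srsf2-203, with the pair of introns shown above, had 6.70%, 6.91% and 6.95% and then 15.7%, 14.9% and 13.9% (adjusted p = 2.72e-06). Its own level was 29.1 and 29.4 TPM, and that of the rest of the gene 396 and then 169 TPM.

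Other SR-family members shifted by less or from other starting points. Srsf6-204 had 18.2%, 17.2% and 17.0% in control myoblasts and 24.7%, 24.3% and 27.3% in control myotubes (adjusted p = 0.000164, limma). Luc7l-204, of a protein associated with the U1 particle that recognises 5′ splice sites, went from 14.4%, 11.1% and 9.78% to 30.2%, 28.5% and 25.5% (adjusted p = 5.68e-06). Rsrp1-204 went from 42.3% to 51.7% (adjusted p = 0.00536) but has only 13 own bases. Members of Srrm1, Srrm2, Son, Rbm39, Tra2a, Tra2b, Srsf1, Srsf5, Srsf11, Luc7l2 and Nktr were also called higher.

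Of spliceosome components and helicases, 19 of 78 members were higher and 1 lower. Prpf31-205, of a protein that joins U4/U6 to U5 particles, had 16.4%, 16.4% and 13.3% in control myoblasts and 34.0%, 33.8% and 33.5% in control myotubes (1.49 ± 0.15, adjusted p = 1.97e-06, limma). Sf3b1-203, of the U2 subunit that binds the branch point, had 8.30% ± 0.32 and then 16.2% ± 0.22 (adjusted p = 1.31e-05), with the member itself at 12.2 and then 20.5 TPM. The exception was Snrpd3-202, of an Sm core protein, which fell from 49.4% ± 2.32 to 40.8% ± 1.38 (adjusted p = 0.00262).

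The hnRNP and related RNA-binding proteins, which coat new RNA and often repress exons, had 10 of 47 members higher and 0 lower. Ptbp1-213, of the polypyrimidine tract binding protein that falls during muscle differentiation, had 1.47%, 2.69% and 2.38% and then 5.35%, 8.43% and 5.85% (adjusted p = 8.76e-05, limma), with the rest of the gene at 401 and then 102 TPM. Its own bases overlap a gene on the other strand. Hnrnpu-202 went from 2.20% to 5.22%.

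Of 3′ processing and export factors, 6 of 26 members were higher and 0 lower, among them Rbbp6-205 (3.60% and then 11.8%) and Cstf3-206 (7.18% and then 14.3%). The kinases of the CLK, SRPK and DYRK families, which phosphorylate SR proteins, had 0 of 18 higher and 1 lower, Srpk1-206, which fell from 31.0% to 23.0% (adjusted p = 0.0304, limma) and has 31 own bases. That call was lost without 4 of the control libraries in turn, with an adjusted p of up to 0.141 without the first myotube control. Nonsense-mediated decay and exon junction genes had 0 of 8 called, and 3 of the 8 had a positive difference.

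Among the 59 higher members, 22 hold a whole intron. The rest of the gene was lower in 50 of them and the member itself was higher in 39; the median log2 difference of TPM was 0.22 for the member and -0.70 for the rest of the gene. Over the 233 members tested these medians were -0.15 and -0.49. In depleted cultures 57 of the 59 were higher in myotubes with siRNA 1 (53 without overlap) and 59 with siRNA 2 (51 without overlap). Over all transcripts tested, 18.7% were higher without overlap with siRNA 1 and 17.9% with siRNA 2. The 59 were picked by a test whose estimate of spread used the depleted libraries too. Some RNAs that stay in the nucleus moved with stage too. Malat1 had a mean of 352 TPM in control myoblasts and 1170 in control myotubes, and Neat1 71.8 and 147. Kcnq1ot1 was level, at 0.191 and 0.195 TPM. The summed TPM of Malat1, Neat1 and Kcnq1ot1 was 365 to 514 in myoblast libraries and 1170 to 1420 in myotube libraries. Their part in the result was not tested.

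**Figure D4:**
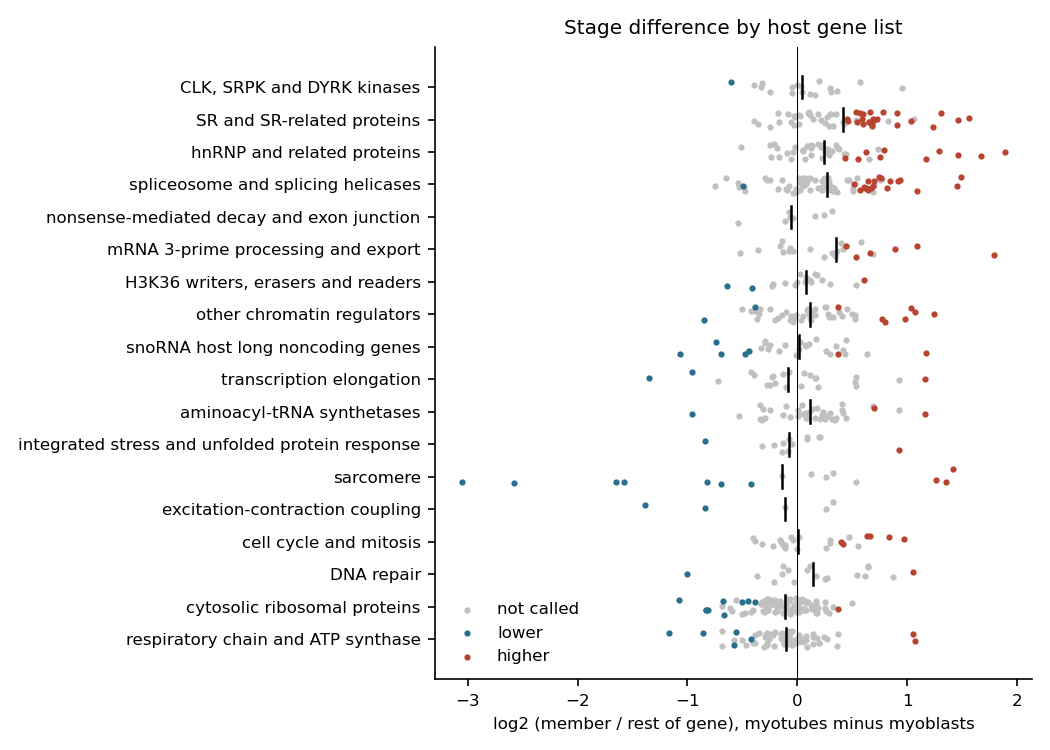
Difference in log2 ratio of member to rest of gene, control myotubes minus control myoblasts, for members of 18 host gene lists; points are members, coloured where called, and the black tick is the list median. The SR, hnRNP, spliceosome and 3′ processing lists lie mostly right of 0, with medians from 0.24 to 0.42, and the sarcomere list reaches -3.05.

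Members of muscle structural genes were split. In sarcomere genes, 7 of 15 members tested fell in share, and 3 rose, against 11% lower and 11.2% higher over all transcripts tested. All 3 that rose were in Tpm3, a tropomyosin gene, but another of its members, Tpm3-208, was among those that fell. Of the 15, 7 had a difference above 0, and the median was -0.14. Tnnc1-201, of slow and cardiac troponin C, fell from 13.4% ± 3.12 to 1.86% ± 0.18 (adjusted p = 3.4e-08, limma) with its level at 2.66 and then 94.2 TPM. Myom2-202, of the M-band protein myomesin 2, fell from 13.2% ± 0.47 to 2.83% ± 0.11 (adjusted p = 5.82e-11), and Ttn-207, of the giant elastic protein titin, from 6.31% ± 2.11 to 2.43% ± 0.55 (adjusted p = 0.000672). Of 5 excitation-contraction members tested, 2 fell, Chrng-205 and Cacna2d1-211, the latter of a calcium channel subunit, from 28.8% ± 1.35 to 13.4% ± 0.57 (adjusted p = 2.81e-08). The Chrng-205 call was lost when any of 5 control libraries was left out, with an adjusted p of up to 0.159 without the second myoblast control. Of 38 sarcomere members only 15 passed the read minimum in both stages, so 23 could not be tested.

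Most other lists had fewer calls or calls in both directions, while the cell cycle calls were all higher. Over all transcripts tested, 11.2% were called higher and 11% lower. Cytosolic ribosomal protein genes had 1 of 102 members higher and 9 lower, and respiratory chain genes 2 of 67 higher and 5 lower. Cell cycle genes had 6 of 24 higher and 0 lower, with a median log2 difference of 0.008 and 12 of the 24 above 0. Among the 6 were Ccnl1-206 (5.57% and then 10.5%) and Ccnl2-205 (27.5% and then 33.3%), whose cyclins L take part in splicing, and Cdc25b-206. The calls of Ccnl2-205 and Cdc25b-206 were lost without 4 and 5 of the control libraries in turn, with an adjusted p of up to 0.119 without the second myoblast control and 0.151 without the second myotube control. Host genes of snoRNAs had 2 of 29 higher and 5 lower, including Dancr-202, which has no own bases. Chromatin regulators outside the H3K36 pathway had 7 of 48 higher and 2 lower, elongation factors 1 and 2 of 24, tRNA synthetases 2 and 1 of 40, DNA repair genes 1 and 1 of 18, and stress response genes 1 and 1 of 13.

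In the H3K36 pathway, 1 of 18 members rose with differentiation and 2 fell, against 11.2% higher and 11% lower over all transcripts tested. Psip1-206, of the reader protein LEDGF, rose from 9.93% ± 0.37 to 14.4% ± 0.75 (adjusted p = 0.000467, limma). Setd3-207, of the actin histidine methyltransferase, fell from 3.75% ± 0.41 to 2.46% ± 0.36 (adjusted p = 0.00401). Mtf2-216, of a Polycomb-associated reader, fell from 23.7% ± 2.24 to 18.8% ± 2.16 (adjusted p = 0.0395).

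Depletion of Setd2 gave 0 called changes in the share of any retained-intron transcript. In myoblasts 6701 members were tested and in myotubes 6299, for each siRNA against the control, and limma with Benjamini-Hochberg adjustment over all transcripts called 0 in each of the 4 comparisons. The background was as empty, with 0 of 26234 transcripts called for siRNA 1 in myoblasts, 2 (0.00762%) for siRNA 2, and 0 of 25879 in myotubes with either. The smallest adjusted p over members was 0.289 and 0.0895 in myoblasts, and 0.324 and 0.119 in myotubes, for siRNA 1 and siRNA 2. The standard error of a member had a median of 0.22 on the log2 scale. Sizeable shifts could miss the threshold, as did Setd2-204 with siRNA 2 in myoblasts at 1.93 ± 0.28, so a count of 0 does not show that shares were alike. With edgeR's count-based splicing test, an alternative, 0 and 6 members were called in myoblasts and 4 and 3 in myotubes, for siRNA 1 and siRNA 2. Over all transcripts that test called 0.0503% and 0.364% in myoblasts and 0.248% and 0.347% in myotubes.

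The counts at an unadjusted p under 0.05 are read against all transcripts. With siRNA 1 in myoblasts 424 members (6.33%) passed it against 6.43% of all transcripts, and with siRNA 2 552 (8.24%) against 10%. In myotubes 370 (5.87%) passed against 7.43%, and 478 (7.59%) against 9.24%. By direction, 145 (2.16%) were higher and 279 (4.16%) lower with siRNA 1 in myoblasts, against 3.02% and 3.41%. With siRNA 2 there 273 (4.07%) were higher and 279 (4.16%) lower, against 5.18% and 4.85%. In myotubes 144 (2.29%) were higher and 226 (3.59%) lower with siRNA 1, against 3.58% and 3.85%. With siRNA 2 there 162 (2.57%) were higher and 316 (5.02%) lower, against 4.39% and 4.85%. Where the 6 depleted libraries did not overlap the 3 controls, more members were lower than higher: 169 lower and 77 higher in myoblasts, against backgrounds of 1.99% and 1.78%, and 175 lower and 74 higher in myotubes, against 2.64% and 2.17%. As shares of the members tested these are 2.52% and 1.15%, and 2.78% and 1.17%. The summed level of 2 ribosomal RNA-like sequences moved with these groups, from 14900 to 17100 TPM in the control myoblast libraries, from 45000 to 49100 for siRNA 1 there and from 18400 to 51800 for siRNA 2. In myotubes the ranges were 16800 to 30300, 20000 to 38200 and 29400 to 38700. Its part in the result was not tested. The siRNAs share their controls, so their values are given side by side and not as repeats of each other.

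Between the siRNAs, 0 of 6701 members in myoblasts and 0 of 6299 in myotubes were called in share (smallest adjusted p = 0.092 and 0.154, limma), and 502 and 343 members had an unadjusted p under 0.05, against 8.58% and 6.63% of all transcripts. The difference of the depletion effect between the stages was called for 0 of 5493 members (smallest adjusted p = 0.176; 336, against 8.16% of all transcripts, had an unadjusted p under 0.05), against 0.00446% of all transcripts. The RNA-processing lists had 0 called of 260 members in myoblasts and of 239 in myotubes with either siRNA. At an unadjusted p under 0.05, 2 were higher and 9 lower with siRNA 1 in myoblasts (all transcripts 3.02% and 3.41%), and 12 and 7 with siRNA 2 (5.18% and 4.85%). In myotubes the counts were 8 and 10 with siRNA 1 (3.58% and 3.85%) and 6 and 11 with siRNA 2 (4.39% and 4.85%).

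Setd2's own retained-intron transcripts had higher mean shares after depletion, though none passed the test. Setd2-208 (chr9:110594290-110605108, plus strand, 4 exons, 877 of 1735 bases its own) had 1.93%, 2.00% and 3.33% of its gene in control myoblasts, 4.54%, 5.01% and 2.58% with siRNA 1 and 4.12%, 3.45% and 4.36% with siRNA 2. In myotubes it had 2.44%, 2.69% and 2.38%, then 6.92%, 4.72% and 5.12%, then 4.91%, 5.10% and 5.20%. In myotubes the depleted libraries all lay above the controls, and in myoblasts 1 library of siRNA 1 did not. The log2 differences were 0.86 and 0.82 in myoblasts and 1.17 and 1.10 in myotubes, with adjusted p = 0.602, 0.333, 0.324 and 0.227 (limma). Setd2-208 was called for siRNA 2 with a pseudocount of 1 TPM. Its own TPM, 0.82, 0.53 and 0.59 in myoblasts and 0.81, 0.98 and 0.61 in myotubes, was not called in abundance.

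Setd2-204 (chr9:110617601-110618607, plus strand, a single exon, 217 of 1007 bases its own) differed more between the siRNAs. In myoblasts, where it is a member, it had 5.60%, 3.93% and 3.06% in controls, 5.38%, 5.04% and 8.15% with siRNA 1 and 14.9%, 11.9% and 16.3% with siRNA 2. The siRNA 2 libraries lay above all others, at a log2 difference of 1.93 ± 0.28 from control with an adjusted p of 0.11 (limma). It was called under edgeR's count-based splicing test (adjusted p = 0.00161). Where in the gene the siRNAs bind was not analysed here.

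**Figure D5:**
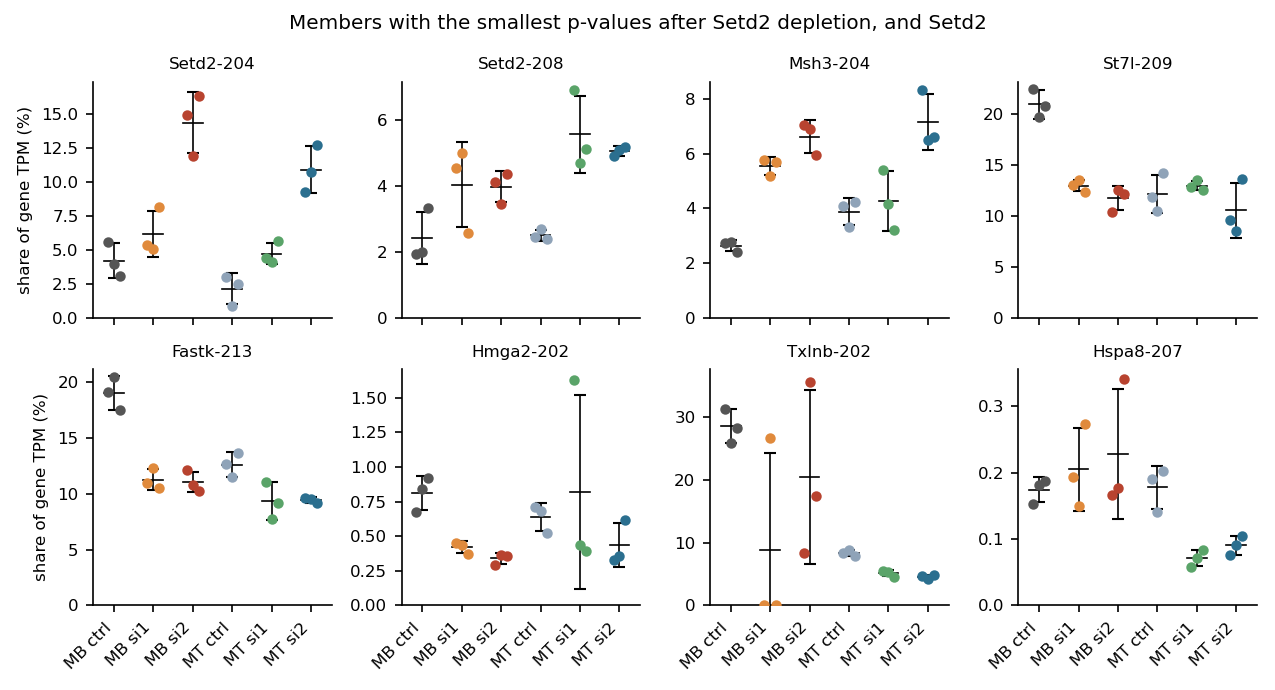
Share of gene TPM in percent after Setd2 depletion for both Setd2 members and 6 members with the smallest p-values, chosen after their values were seen; points are libraries, bars the group mean with its SD (n = 3), MB myoblast and MT myotube. Msh3-204 lay at 2.41% to 2.78% in control myoblasts and 5.19% to 7.04% in depleted ones, and no panel holds a difference from control that passed the adjusted threshold.

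Other members with small p-values, chosen after their values were seen, separated the groups without passing. Msh3-204 (chr13:92345869-92354953, minus strand), of a mismatch repair protein, had 2.74%, 2.78% and 2.41% in control myoblasts, 5.79%, 5.19% and 5.71% with siRNA 1 and 7.04%, 6.91% and 5.95% with siRNA 2. Depleted and control libraries did not overlap, and the adjusted p was 0.289 and 0.0895 (limma). In myotubes its means were 3.89%, 4.27% and 7.16%. Its abundance did pass in myoblasts, at 0.41 TPM in controls and 0.80 and 0.88 after depletion (adjusted p = 0.0238 and 0.00549, edgeR). The siRNA 1 call was lost in 5 of 9 fits with a library left out, with an adjusted p of up to 0.0963 without the third control.

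Lower shares without a call were seen for members of several genes. Fastk-213, of a mitochondrial RNA-binding protein family, had 17.5% to 20.5% in the control myoblast libraries, against 10.5% to 12.3% (siRNA 1) and 10.3% to 12.1% (siRNA 2) (adjusted p = 0.377 and 0.121, limma). St7l-209, whose own bases overlap a gene on the other strand, had 22.5%, 19.7% and 20.8%, then 13.1%, 13.5% and 12.4%, then 10.4%, 12.6% and 12.2% (adjusted p = 0.391 and 0.105). Hmga2-202, of a chromatin architectural protein, had means of 0.81%, 0.42% and 0.34% (adjusted p = 0.403 and 0.0904). In each of the 3, all depleted myoblast libraries lay below all controls.

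In myotubes the leading members were others. Txlnb-202, of the muscle taxilin, had 8.36%, 8.88% and 7.81% in controls, 5.54%, 5.30% and 4.58% with siRNA 1 and 4.67%, 4.19% and 4.84% with siRNA 2 (adjusted p = 0.427 and 0.227, limma). Hspa8-207, of a constitutive heat shock chaperone, had 0.19%, 0.14% and 0.20%, then 0.059%, 0.072% and 0.083%, then 0.076%, 0.091% and 0.10% (adjusted p = 0.395 and 0.302). Both separated depleted from control libraries, and neither passed.

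Abundance was tested with edgeR's quasi-likelihood test on estimated reads, and here some members did pass. With siRNA 1 in myoblasts 24 rose and 24 fell (0.712% of 6745), against 5.1% of all transcripts, 3.08% higher and 2.02% lower. With siRNA 2 in myoblasts 90 rose and 80 fell (2.52%), against 13.4%, 7.08% higher and 6.32% lower. In myotubes 27 rose and 23 fell with siRNA 1 (0.788% of 6345), against 5.1%, 2.9% higher and 2.2% lower. With siRNA 2 in myotubes 76 rose and 64 fell (2.21%), against 10.8%, 6.34% higher and 4.5% lower. In each stage 15 members rose and 11 fell with each siRNA, against 2.26% and 0.872% of all transcripts in myoblasts and 1.94% and 1.23% in myotubes. The rest of the gene moved the same way in 72 of the 90 and 70 of the 80 with siRNA 2 in myoblasts, and in 64 of the 76 and 62 of the 64 in myotubes. The siRNA 1 counts fell without any 1 library of the compared groups, so no single library accounts for the loss. The 48 myoblast calls were then 10 (without the third control) to 31 (without the third siRNA 1 library). The 50 myotube calls were 9 (without the third siRNA 1 library) to 34 (without the first). With siRNA 2 the 170 myoblast calls were 83 without the third control, and the 140 myotube calls 62 without the third control.

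The members named next were chosen after their values were seen. With siRNA 1, the calls given below with their levels were lost without at least 1 library for all but Myl1-208 and Myl12b-202 in myotubes, with adjusted p up to 0.108 (Ccnd1-202, without the third control). With siRNA 2, only Cp-211 and Serpinf1-205 of those lost theirs, with adjusted p up to 0.0637 (Cp-211, without the second siRNA 2 library). Myl12b-202, of a regulatory light chain of nonmuscle myosin, was at 20.5 ± 4.24 TPM in control myoblasts and 37.1 ± 5.0 and 42.0 ± 5.61 after depletion (adjusted p = 0.0222 and 0.00412, edgeR). In myotubes it was at 19.99 ± 7.85, 67.7 ± 17.8 and 49.3 ± 3.11 TPM (adjusted p = 0.00873 and 0.0119), with the gene at 236, 383 and 308 TPM. Ccnd1-202, of cyclin D1, was at 3.56 ± 0.10 TPM in control myoblasts and 6.66 ± 0.73 and 7.60 ± 1.44 after depletion (adjusted p = 0.0299 and 0.00644), with the gene at 256, 296 and 362 TPM.

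Some members of the muscle lists were called in abundance in myotubes. Of 38 sarcomere members 2 (Myl1-208 and Myom2-202) rose and 0 fell with siRNA 1, and 5 rose and 3 fell with siRNA 2. Over all transcripts 2.9% rose and 2.2% fell with siRNA 1, and 6.34% and 4.5% with siRNA 2. Over all members 0.788% were called with siRNA 1 and 2.21% with siRNA 2. Of 17 excitation-contraction members 1 (Cacna2d1-211) rose with siRNA 1 and 0 were called with siRNA 2. Ache-208, of acetylcholinesterase, which is in neither list, was at 0.62 ± 0.068, 1.09 ± 0.20 and 1.94 ± 0.084 TPM (adjusted p = 0.0241 and 0.000471, edgeR) with its gene at 6.66, 11.97 and 24.5 TPM; its share was 9.26%, 9.04% and 7.98%. Myl1-208, of the fast alkali myosin light chain, was at 215.8 ± 4.82, 299.4 ± 18.3 and 319.7 ± 19.7 TPM (adjusted p = 0.00744 and 0.000772), with a share of 4.24%, 4.92% and 4.90%. In both, the level rose and the share was not called.

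Called falls in abundance came with and without a lower gene total. Cp-211, of the ferroxidase ceruloplasmin, was at 0.69 ± 0.098 TPM in control myoblasts and 0.27 ± 0.040 and 0.32 ± 0.088 after depletion (adjusted p = 0.0184 and 0.0179, edgeR), with its gene at 11.5, 6.78 and 6.98 TPM. Serpinf1-205, of pigment epithelium-derived factor, was at 33.5 ± 3.72 TPM in control myotubes and 19.3 ± 0.63 and 18.6 ± 2.60 after depletion (adjusted p = 0.0253 and 0.0136), with its gene at 339, 194 and 238 TPM. St7l-209 fell from 3.87 ± 0.21 TPM in control myoblasts to 2.44 ± 0.11 and 2.13 ± 0.22 (adjusted p = 0.0214 and 0.00188), with its gene at 18.4, 18.7 and 18.2 TPM.

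Members of H3K36 pathway genes, Setd2 included, had 0 called share changes after depletion. There were 24 of them in 14 of the 26 genes listed, all tested in myoblasts and 18 in myotubes. Their median log2 difference in myoblasts was -0.03 with each siRNA and in myotubes 0.01 and 0.08. At an unadjusted p under 0.05 (limma), 5 of 24 passed with siRNA 1 in myoblasts and 6 with siRNA 2. All transcripts passed there in 6.43% and 10% of cases. In myotubes 1 and 3 of 18 passed, against 7.43% and 9.24%. Nsd2-213, of a dimethyltransferase for the same lysine, had 1.5% ± 0.13 in control myoblasts and means of 5.35% and 4.16% after depletion (adjusted p = 0.548 and 0.304, limma). It was singled out after its values were seen, and only 35 of its 537 bases are its own.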

How the data were processed

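PolyA RNA of 18 C2C12 libraries was quantified by the authors, who deposited 1 table per stage with an estimated count (NumReads, not scaled between libraries) and a TPM value (scaled within each library) per transcript, per the file headers. The submitters' processing notes name mm10 and DESeq2; the quantifier's name was not given in the sources used here. Transcripts were matched by identifier to GENCODE M21 (114200 of 115088). Members, lists and tests were chosen with earlier results of these data known.

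Share was tested with limma 3.58.1 (trend, robust) on log2 of (member TPM + 0.1) over (rest of gene TPM + 0.1), for transcripts where member and rest each had at least 10 estimated reads in all 9 libraries of the stage; stage contrasts used all 18 libraries in 6 groups. Fold changes on this scale understate changes of low transcripts. Abundance was tested with edgeR 4.0.16 (quasi-likelihood, TMM) on rounded estimated counts. Both used Benjamini-Hochberg adjustment over all transcripts tested, called at 0.05 in R 4.3.3, after the scripts were tested on simulated data. Named were the 10 stage calls with the largest difference in percentage points, the 5 members with the highest TPM per stage, members of H3K36 genes, and up to 3 per list called with both siRNAs, which named none; all others named were chosen after their values were seen. Introns were taken from the annotation, overlaps from bedtools 2.31.1. Alternatives tried were other pseudocounts, filters, scalings and tests, a replicate block, the library name prefix, and leaving out each library.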

Additional observations from a re-analysis of the deposited data

How the results depend on the processing

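No call of a named member reversed its direction under any alternative run. The balance of higher and lower abundance calls did turn under some. With siRNA 2 in myoblasts 90 rose and 80 fell, but 51 and 63 without the second siRNA 2 library. With siRNA 1 in myotubes 27 rose and 23 fell, but 20 and 22 with the replicate block. The stage count of 879 members was 569 with no read filter, 1712 with a pseudocount of 1 TPM and 526 with the replicate number as a block (59.5% higher, against 53.1%), and 635 to 891 with 1 library left out; the RNA-processing count of 61 was 95 with a pseudocount of 1 TPM and 48 to 62 with 1 library left out, an alternative chosen after seeing the data. For share after depletion, where the count was 0, a pseudocount of 1 TPM gave 35 for siRNA 2 in myoblasts, 6 for siRNA 2 against siRNA 1 there and 1 for siRNA 2 in myotubes; shares from estimated reads gave 7 for siRNA 2 in myoblasts; edgeR's count-based splicing test gave 6 for siRNA 2 in myoblasts, and in myotubes 4 for siRNA 1, 3 for siRNA 2, 1 with both and 1 between the siRNAs. Leaving out any library gave 0. The abundance counts of 48, 170, 50 and 140 (myoblast siRNA 1 and 2, myotube siRNA 1 and 2) were 13, 84, 10 and 54 with no read filter, 96, 248, 114 and 226 with DESeq2, and 10 to 41, 83 to 179, 9 to 61 and 62 to 149 with 1 library left out. The cause was not tested. Same-numbered libraries deviated together only weakly in myoblasts, with correlations from -0.013 to 0.045 (median 0.029). Differently numbered ones lay from -0.07 to 0.042 (median -0.014). Myoblast pairs with the same name prefix had a median of 0.029, and pairs with different prefixes lay from -0.07 to -0.004. In myotubes the medians were 0.011 and -0.007 by number, and 0.011 and -0.008 by prefix. Whether the replicate numbers pair the samples cannot be told from these values. The replicate block left 0 depletion share calls. Of 768 stage values of named members under the alternatives, 721 stayed called and 47 did not. Of 644 abundance values of named members after depletion, 195 lost their call, and of 1734 share values after depletion 14 gained one and 49 moved by more than their standard error. Depth limits members near 10 reads.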
